A study of Saccharomyces cerevisiae with 12 samples.

Results

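The difference between the effects of methyl methanesulfonate (MMS) on the messenger RNA of 2 yeast strains was measured for 6463 of the 7109 gene identifiers in the table. All genes that passed the filter on low counts were taken. For each gene the change with MMS in a hel2 deletion strain was set against the change with MMS in the wild type, and genes that changed in opposite directions in the strains were described in more detail. Both are Saccharomyces cerevisiae strains in BY4741, a haploid of mating type a with several nutritional markers deleted. They grew in YPD, a rich medium with glucose, to a density near 0.5 (OD), and the treated cultures then had MMS for 90 min at 30 °C. The 4 groups were untreated wild type (WT), wild type with MMS (WT_MMS), the untreated deletion strain (hel2) and the deletion strain with MMS (hel2_MMS), with 3 libraries each. The labels call these libraries biological replicates, give no dose of MMS and do not say how many clones of the deletion strain were used. RNA was extracted with hot phenol, and poly(A) RNA was selected on oligo-dT beads.

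MMS is an alkylating agent that methylates bases in DNA and RNA, and alkylated messenger RNA can stall ribosomes. Hel2 is a ubiquitin ligase that recognises ribosomes that have run into a stalled ribosome and starts ribosome-associated quality control. Collided ribosomes can also activate the kinase Gcn2, which phosphorylates the initiation factor eIF2 and so raises translation of the transcription factor Gcn4, an activator of amino acid synthesis genes. Damaged DNA separately activates the Mec1, Rad53 and Dun1 kinases, which relieve repression of the ribonucleotide reductase genes.

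Library totals ran from 36472686 to 53638964 counts. HEL2 had 2105, 1869 and 2431 counts in untreated wild type and 928, 1522 and 2185 with MMS. The deletion strain had 27, 19 and 20 HEL2 counts when untreated and 35, 39 and 29 with MMS, far below every wild type library. The strains also differed at the auxotrophic marker LEU2, with counts from 2 to 28 over 6 libraries of wild type and from 19374 to 28105 over those of the deletion strain. Every comparison of the strains holds this difference together with the HEL2 deletion, and their effects cannot be told apart. Marker genes of a cells summed to 2073 to 2688 CPM (where CPM is each gene's share of the TMM-scaled library) over all libraries. Marker genes of alpha cells summed to 62.5 to 151 CPM and those of meiosis to 61.8 to 169.5 CPM, and the sums of both were higher with MMS than without in each strain. Not every member rose. SAG1 had the largest count of the alpha markers in every library, while AFB1 went from 805, 852 and 1028 to 518, 644 and 674 counts in the deletion strain. Of the meiosis markers, SPS4 went from 46, 45 and 43 to 5, 13 and 9 counts in the wild type. WT_MMS_1 stood apart from its group, at 43.2 on the second principal component against 21.8 and 21.4. Levels are per unit of RNA in bulk cultures, so fewer cells of a type and less RNA per cell cannot be told apart.

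MMS changed most genes in both strains, and for 2587 of 6463 genes (40.0%) the size or direction of the change differed between the strains at an adjusted p under 0.05 (edgeR quasi-likelihood test, Benjamini-Hochberg over all genes). The difference is the log2 change with MMS in the deletion strain minus that in the wild type. It was called higher for 1200 genes (18.6%) and lower for 1387 (21.5%). The difference was at least 2-fold for 634 of the called genes (9.81% of those tested), 307 higher and 327 lower. Across all genes its median was -0.01, and 90% of genes lay between -1.11 and 1.07 on the log2 scale. MMS alone was called for 4515 genes (69.9%) in the wild type, where 35.6% of genes rose and 34.2% fell, and for 4874 (75.4%) in the deletion strain, where 39.2% rose and 36.2% fell. Without WT_MMS_1 the difference was called for 2828 genes, 553 of them at 2-fold or more.

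Most differences were differences of size within a shared direction. Of the 1200 higher genes, 527 rose in both strains and more in the deletion strain, 355 rose in the deletion strain without a call in the wild type, 154 fell in the wild type without a call in the deletion strain and 86 fell in both. Of the 1387 lower genes, 671 fell in both strains and further in the deletion strain, 276 fell in the deletion strain without a call in the wild type, 155 rose in the wild type without a call in the deletion strain and 180 rose in both. Opposite calls made up 67 of the higher and 99 of the lower genes, and 11 and 6 genes were called in neither strain. The changes correlated across genes at r = 0.82, and genes are not independent replicates. Their SD across genes was 1.16 in the wild type and 1.36 in the deletion strain, and of 2054 genes with a mean change of at least 2-fold, 1423 (69.3%) had the larger change in the deletion strain. The untreated strains differed at 554 genes (8.57%), with 339 (5.25%) higher and 215 (3.33%) lower in the deletion strain. Of the 2587 genes called in the difference, 335 were also called between the untreated strains, and these comparisons share the untreated libraries.

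**Figure D1:**
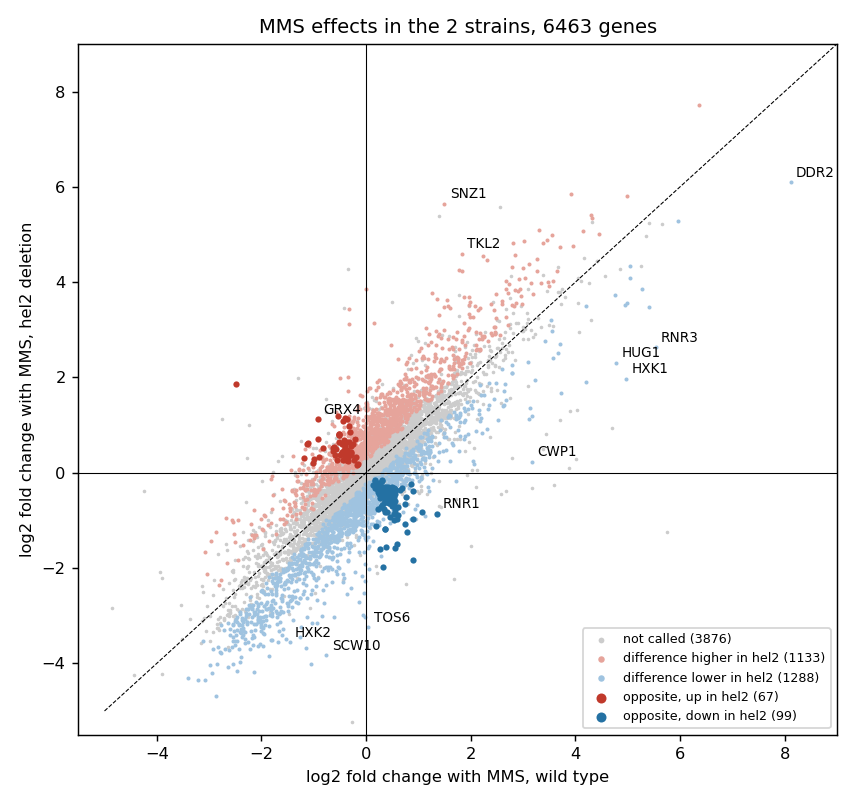
Log2 fold change with MMS in the wild type (x axis) against that in the hel2 deletion strain (y axis) for each gene tested, with the dashed line at equal change and 6 genes outside the axes. Light red and light blue points are genes called higher and lower in the difference, dark points the 67 and 99 genes called with opposite directions, which lie close to the origin.

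The split between higher and lower calls depended on scaling. With TMM scaling 46.4% of the called genes were higher, and with plain library totals 66.6% were, as the median difference of all genes moved by 0.24 to 0.23. The number of lower genes was then 748 in place of 1387. Cytosolic ribosomal protein genes took 24.0 to 26.2% of the counts in untreated wild type and 6.83 to 8.69% with MMS, against 20.9 to 23.3% and 3.92 to 4.24% in the deletion strain. Relative to all genes, list medians moved by at most 0.03 between the scalings. Counts of list members below are to be read beside the shares over all genes, 18.6% higher and 21.5% lower. Medians of lists are to be read beside the median of all genes, -0.01. The members of 16 of 45 lists had a median that changed sign with plain library totals, and no direction is given for these.

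**Figure D2:**
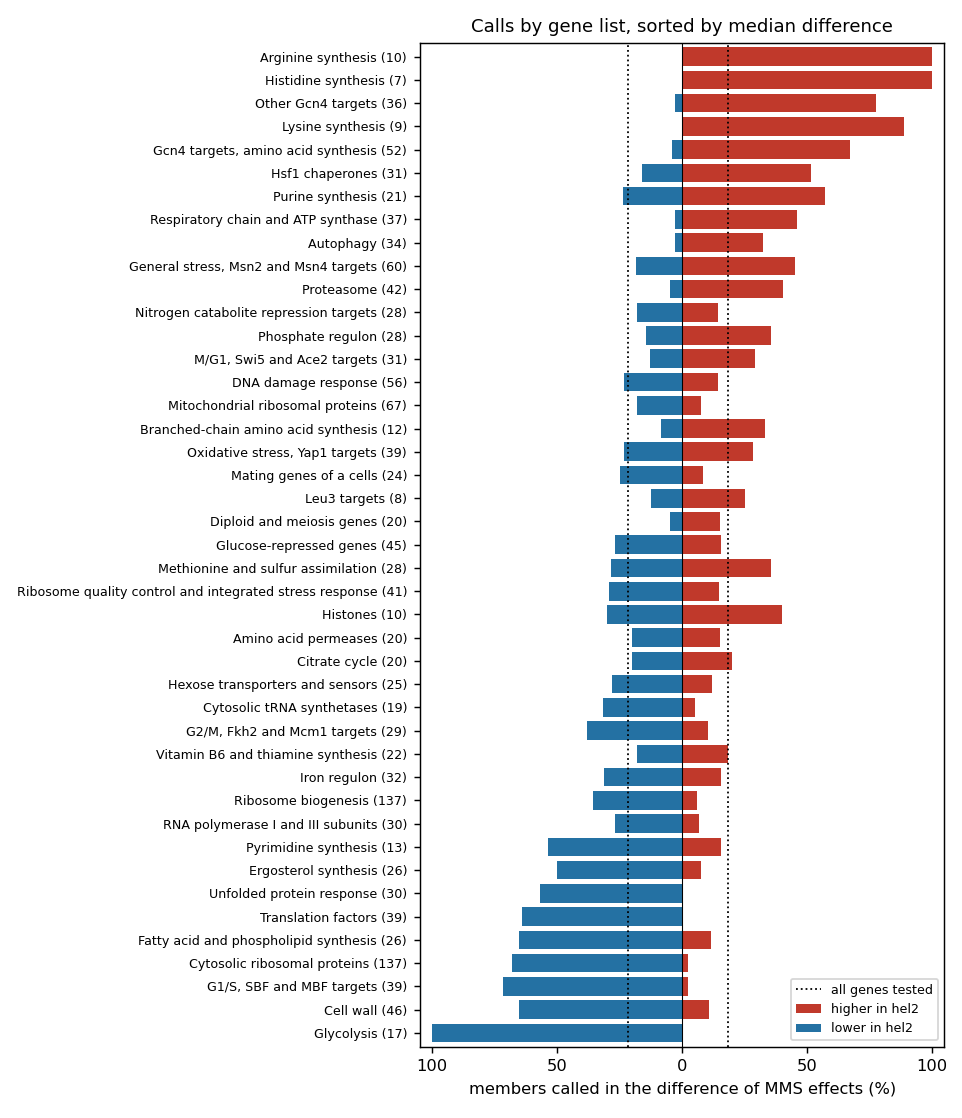
Share of the members of each gene list called higher (right) or lower (left) in the difference of MMS effects, with the number of members tested in brackets and dotted lines at the shares of all genes tested (18.6% higher, 21.5% lower). Lists are sorted by median difference, with arginine synthesis, histidine synthesis, other Gcn4 targets and lysine synthesis at the top. Glycolysis, cell wall and G1/S genes stand at the bottom.

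Genes of amino acid synthesis that Gcn4 activates stood higher with MMS in the deletion strain than in the wild type. Of 52 such genes, 35 were called higher in the difference and 2 lower, THR1 and SER2. Their median difference was 0.67, against -0.01 for all genes, and their median change with MMS was 0.34 in the wild type and 0.92 in the deletion strain. A list of other Gcn4 targets had 28 of 36 higher and 1 lower, YHM2, at a median of 0.89. The mean log2 CPM of the amino acid list was 7.77 to 7.84 in untreated wild type, 8.15 to 8.30 with MMS, 7.83 to 7.98 in the untreated deletion strain and 8.93 to 8.98 with MMS, so that the hel2_MMS libraries lay above all others.

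All 10 arginine synthesis genes were higher, by 0.91 to 1.98, with a median of 1.24. ARG3 was at 3.05, 3.04 and 2.502 CPM without MMS and 28.1, 27.6 and 28.7 CPM with MMS in wild type. Without Hel2 it was at 4.88, 4.39 and 4.82 CPM without and 169, 163 and 153 with MMS. ARG3, the ornithine carbamoyltransferase gene, rose in both strains, by 3.30 in wild type and 5.10 in the deletion strain, with a difference of 1.81 ± 0.12 (SE) and an adjusted p of 6.53e-07. ARG56, which encodes the enzymes of successive early steps, changed by 1.49 in wild type and 3.47 in the deletion strain, a difference of 1.98 ± 0.13 (SE). CPA1, a subunit of carbamoyl phosphate synthetase, had a difference of 1.57 ± 0.16 (SE). ARG1, the argininosuccinate synthetase gene, went from 42.6, 41.0 and 38.3 to 428, 369 and 383 CPM in the wild type and from 69.1, 75.7 and 88.1 to 1789, 1790.4 and 1607 CPM in the deletion strain, a difference of 1.20 ± 0.14 (SE). Without MMS it already stood 0.93 above wild type in the hel2 strain (adjusted p = 0.000103), and the groups did not overlap.

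All 7 histidine synthesis genes were higher, at a median of 0.97. They include HIS3, at 0.78, which like LEU2 is a marker gene of the strain background. Whether its counts come from an intact gene was not tested. HIS5 was at 122, 135 and 127 CPM without MMS and 255, 263 and 253 CPM with MMS in wild type. Its level in hel2 cells was 147, 146 and 151 CPM without and 872, 857 and 871 with MMS. HIS5, histidinol-phosphate aminotransferase, rose in both strains, and its difference was 1.55 ± 0.09 (SE). HIS4, the multifunctional histidine enzyme long used as a Gcn4 reporter, changed by 0.52 in wild type and 1.73 in the deletion strain, a difference of 1.22 ± 0.12 (SE) with an adjusted p of 1.08e-05. HIS7 did not pass the test in the wild type at -0.01 and rose by 1.05 in the deletion strain. Of 9 lysine synthesis genes 8 were higher, at a median of 0.87. LYS1, the last step of the pathway, changed by 2.91 in wild type and 3.81 in the deletion strain, and LYS4 had a difference of 0.04 without a call.

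Branched-chain amino acid synthesis did not share this lean in its median, which was 0.00. Of 12 genes 4 were higher (ILV2, ILV3, LEU3 and LEU4) and 1 lower (BAT2). These shares, 33.3% and 8.33%, stood beside 18.6% and 21.5% of all genes, and the higher members numbered 2 to 5 over the alternatives. The call for LEU4 was lost in 12 of 19 alternatives with adjusted p values up to 0.083. Of 8 targets of Leu3, the activator of this pathway, 2 were higher and 1 lower. The strains differ in genotype within this pathway, as LEU2 had counts in the deletion strain at a level the wild type lacked. This difference enters all other comparisons of the strains as well. LEU2 itself had a difference of -1.53 ± 0.56 (SE) with an adjusted p of 0.0485, which rests on the 2 to 28 wild type counts and was lost in 13 of 19 alternatives.

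Among genes with a symbol and 4 or more in mean log2 CPM, the largest difference belonged to SNZ1, a pyridoxine (vitamin B6) synthesis gene. SNZ1 was at 22.1, 23.6 and 19.8 CPM without MMS and 70.6, 53.7 and 60.8 CPM with MMS in wild type. The hel2 libraries held 24.5, 22.1 and 24.3 CPM without and 1239, 1173 and 1143 with MMS. Its level in the hel2_MMS libraries was thus above that in all other libraries, and the untreated strains did not differ beyond their spread. The change was 1.498 in wild type and 5.65 in the deletion strain, a difference of 4.15 ± 0.15 (SE) or 17.7-fold, with an adjusted p of 7.15e-09. SNO1, its partner and neighbour on the chromosome, changed by 1.35 in wild type and 3.65 in the deletion strain, a difference of 2.30 ± 0.23 (SE). MTG1, on the other side of SNZ1, had 2.98 ± 0.21 (SE), and without a stated strand reads of neighbours cannot be told apart. The list of 22 vitamin B6 and thiamine genes as a whole had 4 higher and 4 lower (18.2% each), against 18.6% and 21.5% of all genes. SER3, which encodes the first enzyme of serine synthesis, was at 96.9, 95.6 and 108 CPM in WT_MMS and 448, 476 and 457 CPM in hel2_MMS, with a difference of 2.07 ± 0.09 (SE). GCV1, a subunit of the glycine cleavage system, had a difference of 1.77 ± 0.08 (SE). Among genes of sulfur amino acid synthesis, STR2 and STR3 had differences of 1.91 ± 0.16 (SE) and 1.82 ± 0.20 (SE), whereas CYS3 had -1.35 ± 0.19 (SE), and the list had 10 higher and 8 lower of 28.

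GCN4 was at 667, 685 and 589 CPM in WT_MMS and 574, 565 and 549 CPM in hel2_MMS, and fell with MMS in both strains, at -0.66 in wild type and -0.90 in the deletion strain. Its difference was -0.24 ± 0.12 (SE) with an adjusted p of 0.137, and 0.01 with plain library totals. GCN4 is controlled mainly at translation, which poly(A) RNA levels do not measure. The kinase gene GCN2 had a difference of 0.36 ± 0.14 (SE) with an adjusted p of 0.0587. GCN1, whose product binds collided ribosomes and activates Gcn2, was lower, at -0.86 ± 0.13 (SE), with an adjusted p of 0.000257, and the libraries of the strains with MMS did not overlap. GCN20, its partner, had -0.12 ± 0.08 (SE) without a call.

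**Figure D3:**
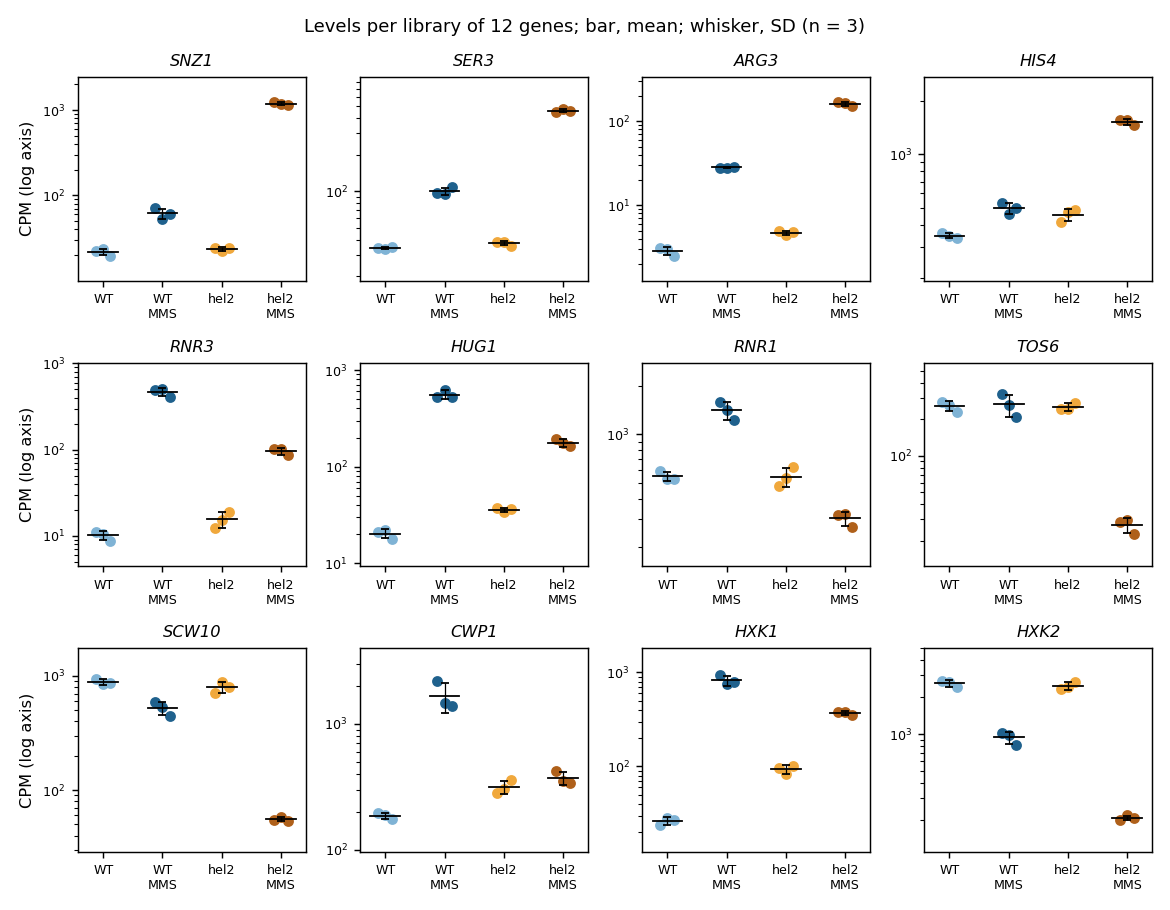
Level of 12 genes in each library in CPM on log axes that differ between panels, with the mean as a bar and the SD as whiskers (n = 3 per group). The hel2 libraries with MMS were the highest of the 4 groups for SNZ1, SER3, ARG3 and HIS4 and the lowest for RNR1, TOS6, SCW10 and HXK2, while RNR3, HUG1, CWP1 and HXK1 reached their highest level in wild type with MMS.

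Purine synthesis was divided. Of 21 genes 12 were higher and 5 lower in the difference, at a median of 0.38. Genes of the common and adenine branches were among the higher, including ADE2, ADE1 (1.26) and ADE17 (1.45), which were named after their values were seen. The lower genes were SHM1 and the guanine branch genes IMD2, IMD3, IMD4 and GUA1. IMD2, an inosine monophosphate dehydrogenase gene, changed by -1.61 in wild type and -3.41 in the deletion strain, a difference of -1.81 ± 0.17 (SE), and IMD4 by -1.48 ± 0.17 (SE). The IMD genes are close relatives, and reads could be divided between them. In pyrimidine synthesis 7 of 13 genes were lower and 2 higher, led by FUR1 with -1.55 ± 0.14 (SE) and URA7 with -1.44 ± 0.12 (SE).

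Genes of the DNA damage response did not lean one way as a list, but each of the 4 ribonucleotide reductase genes RNR1, RNR2, RNR3 and RNR4 was lower in the difference. Of 56 genes 8 were higher and 13 lower, close to the shares of all genes, with a median of 0.05 that was -0.06 without WT_MMS_1. RNR3 was at 11.1, 10.5 and 8.73 CPM without MMS and 497, 501 and 412 CPM with MMS in wild type. Cells lacking HEL2 had it at 12.4, 15.4 and 18.7 CPM without and 101, 103 and 86.1 with MMS. RNR3, the damage-induced large subunit of ribonucleotide reductase, thus rose in both strains, by 5.54 in wild type and 2.64 in the deletion strain, with a difference of -2.90 ± 0.20 (SE) and an adjusted p of 9.83e-07. The WT_MMS libraries lay above the hel2_MMS libraries although untreated hel2 cells stood 0.61 above untreated wild type (adjusted p = 0.0221).

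HUG1, an inhibitor of the reductase and a classical Mec1 and Rad53 target, followed the same order. HUG1 was at 20.8, 22.0 and 17.8 CPM without MMS and 521, 624 and 525 CPM with MMS in wild type. Without Hel2 it was at 37.1, 33.5 and 36.6 CPM without and 195, 175 and 162 with MMS. Its difference was -2.47 ± 0.14 (SE). RNR2, a small subunit gene, changed by 2.68 in wild type and 1.52 in the deletion strain with a difference of -1.16 ± 0.14 (SE), and RNR4, the other small subunit gene, changed by 1.76 and 1.16. PLM2, a target of the same checkpoint, changed by 2.22 in wild type and 0.83 in the deletion strain. Not all damage-induced genes shared this order. MAG1, the 3-methyladenine glycosylase that removes methylated bases, changed by 1.80 and 2.07 and had no call in the difference, and DDI2 changed by 5.42 and 5.25. RAD4, a nucleotide excision repair gene, was higher by 1.31 ± 0.14 (SE), and RAD7 and RAD16 of the same repair pathway were higher by 0.70 and 0.83. RNR2, RNR4, PLM2, MAG1, DDI2 and the RAD genes were named after their values were seen.

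Genes expressed at the G1/S transition under the factors SBF and MBF mostly fell with MMS in the deletion strain, and in the wild type as many rose as fell. Of 39 genes 28 were lower in the difference and 1 was higher, SMC1, at a median of -0.82. With plain library totals 19 were lower. In the wild type 11 rose and 11 fell with MMS, and in the deletion strain 5 rose and 29 fell. TOS6 was at 279, 264 and 231 CPM without MMS and 321, 265 and 211 CPM with MMS in wild type. Its level in hel2 cells was 244, 243 and 275 CPM without and 28.5, 29.6 and 22.5 with MMS. TOS6, which encodes a predicted cell wall protein, did not pass the test in the wild type and fell in the deletion strain, with a difference of -3.28 ± 0.21 (SE) and an adjusted p of 4.56e-07. PCL1, a G1 cyclin that partners Pho85, was at 16.0, 20.8 and 22.0 CPM in WT_MMS and 3.98, 3.50 and 3.25 CPM in hel2_MMS, with a difference of -2.57 ± 0.19 (SE). The G1 cyclin gene CLN2 fell in both strains, at -0.81 in wild type and -2.74 in the deletion strain, as did SRL1, at -0.61 and -3.03. RNR1 belongs to this list and is described with the opposite changes. Of 29 targets expressed at G2/M 11 were lower and 3 higher, with 7 lower under plain library totals. Of 31 expressed at M/G1 4 were lower and 9 higher, against 2 and 15 under plain library totals. The share of cells in each phase was not measured here.

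Cell wall genes showed the same direction. Of 46 genes 30 were lower in the difference and 5 higher, or 9 with plain library totals, at a median of -0.89. SCW10 was at 946, 843 and 862 CPM without MMS and 587, 533 and 446 CPM with MMS in wild type. The hel2 libraries held 706, 878 and 799 CPM without and 55.0, 58.3 and 53.6 with MMS. SCW10, a cell wall protein related to glucanases, fell in both strains and much further in the deletion strain, with a difference of -3.08 ± 0.16 (SE) and an adjusted p of 9.48e-08. The mannoprotein gene TIR1 did not pass in the wild type at -0.01 and fell by 3.03 in the deletion strain. CIS3, an O-glycosylated wall protein, had -0.06 in wild type, without a call, and changed by -2.99 in the deletion strain, and SIM1 had -0.03 and -2.52. GAS1, a glucanosyltransferase that remodels wall glucan, changed by -0.84 in wild type and -3.00 in the deletion strain, and ECM33 had -0.03 in wild type, without a call, and changed by -2.27 in the deletion strain.

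CWP1 behaved otherwise, with a rise in the wild type that the deletion strain lacked. CWP1 was at 197, 188 and 175 CPM without MMS and 2197, 1459 and 1379 CPM with MMS in wild type. Cells lacking HEL2 had it at 283, 306 and 358 CPM without and 423, 349 and 340.3 with MMS. Its change was 3.17 in wild type and 0.23 in the deletion strain, where the latter did not pass the test, and the difference was -2.94 ± 0.23 (SE) with an adjusted p of 2.15e-06. CWP2, its neighbour on the chromosome, had a difference of -2.18. The 5 higher members were PIR3, PRM5, PIR1, CHS1 and SLT2. PIR3 had the largest of these differences, 1.91 ± 0.27 (SE), and SLT2, the kinase of the cell wall integrity pathway, had 0.41.

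Of the unfolded protein response list, which holds 30 chaperones and enzymes of the secretory pathway, 20 rose and 3 fell in the wild type, and 10 rose and 14 fell in the deletion strain. In the difference 17 were lower, at a median of -0.41, and with plain library totals 9 were lower and 1 higher. PMT2, a protein O-mannosyltransferase, had the largest difference of the list, -1.62 ± 0.17 (SE). PDI1, the disulfide isomerase of the endoplasmic reticulum, was at 1721, 1701 and 1594 CPM in untreated wild type and 4131, 3105 and 3209 with MMS. Without Hel2 it was at 1396, 1672 and 1677 CPM without and 1389, 1491 and 1483 with MMS, so that WT_MMS lay above all other groups. The chaperone gene KAR2 changed by 0.59 in wild type and had -0.14 in the deletion strain, without a call, and its difference of -0.73 was -0.47 with plain library totals. HAC1, the transcription factor of the response, had 0.26 in wild type and -0.37 in the deletion strain, but was not called in both. HAC1 is controlled by splicing, which counts per gene do not show.

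Lipid synthesis genes were lower as well. Of 26 fatty acid and phospholipid genes 17 were lower and 3 higher, FAA1, OPI1 and INO4, at a median of -0.64. With plain library totals 12 were lower. ELO3, which elongates fatty acids to very long chains, was at 377, 283 and 262 CPM in WT_MMS and 42.2, 41.9 and 38.9 CPM in hel2_MMS, with a difference of -2.52 ± 0.18 (SE). OLE1, the desaturase gene, changed by -2.47 in wild type and -4.15 in the deletion strain. Of 26 ergosterol genes 13 were lower and 2 higher, at a median of -0.37, and 7 were lower with plain library totals.

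**Figure D4:**
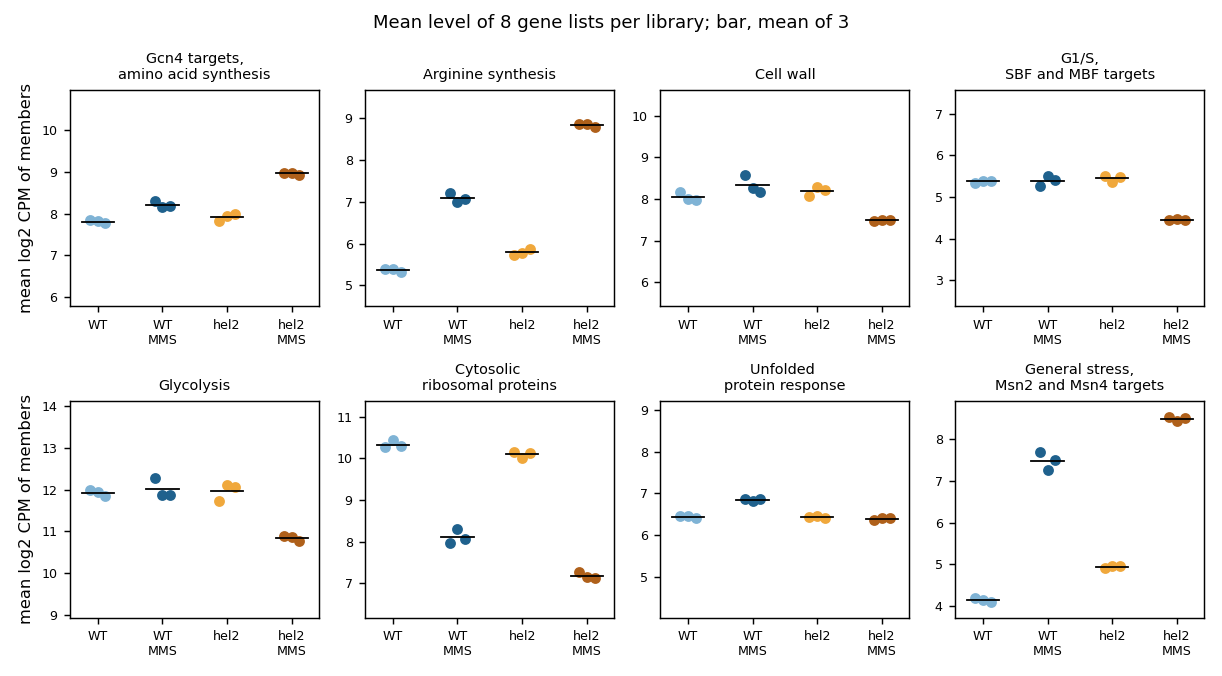
Mean log2 CPM of the members of 8 gene lists in each library, with the mean of 3 libraries as a bar, and each panel spans the same log2 range. The hel2 libraries with MMS were the highest for amino acid synthesis, arginine synthesis and general stress and the lowest for cell wall, G1/S, glycolysis and ribosomal protein genes, and unfolded protein response genes are highest in wild type with MMS.

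Glycolytic genes were lower in the difference without exception, 17 of 17, at a median of -1.16 and with values from -2.10 to -0.58. All 17 were also lower with plain library totals and without WT_MMS_1. In the wild type 5 rose and 8 fell with MMS, and in the deletion strain 2 rose and 14 fell. HXK2 was at 2699, 2649 and 2403 CPM without MMS and 1016, 979.9 and 821 CPM with MMS in wild type. Its level in hel2 cells was 2310.2, 2414 and 2652 CPM without and 201, 217 and 207 with MMS. HXK2, the main hexokinase in glucose, fell in both strains, with a difference of -2.10 ± 0.14 (SE) and an adjusted p of 6.13e-07. TDH2, a glyceraldehyde phosphate dehydrogenase gene, rose by 1.72 in the wild type and had -0.17 in the deletion strain without a call. TDH3, its abundant relative, was at 76474, 50418 and 51496 CPM in WT_MMS and 31395, 31226 and 29195 CPM in hel2_MMS. TDH1, TDH2 and TDH3 are near-identical in part, and reads could be divided between them.

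HXK1, a hexokinase that is normally low in glucose, differed more. HXK1 was at 23.8, 28.5 and 26.9 CPM without MMS and 940.1, 746 and 788 CPM with MMS in wild type. The hel2 libraries held 95.7, 82.7 and 102 CPM without and 379, 376 and 349 with MMS. HXK1 thus differed before treatment, by 1.83 (adjusted p = 1.07e-06), and with MMS the wild type libraries were the higher ones. Its change was 4.97 in wild type and 1.98 in the deletion strain, a difference of -2.99 ± 0.15 (SE). The glucokinase gene GLK1 changed by 5.41 in wild type and 3.47 in the deletion strain, and its libraries with MMS overlapped between the strains. HXT7 and HXT6, near-identical high-affinity glucose transporter genes, had differences of -2.30 ± 0.39 (SE) and -1.98 ± 0.31 (SE). HXT5, a transporter of slowly growing cells, went the other way. It was at 54.8, 27.4 and 36.6 CPM in WT_MMS and 326, 280.5 and 287 CPM in hel2_MMS, with a difference of 2.47 ± 0.27 (SE). Of 45 glucose-repressed genes 7 were higher (15.6%) and 12 lower (26.7%), against 18.6% and 21.5% of all genes. The higher numbered 11 without WT_MMS_1 and 14 with plain library totals.

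All 137 cytosolic ribosomal protein genes fell in the wild type, and 136 fell and 1 rose in the deletion strain. Their median change was -2.26 and -3.03, and 93 were lower in the difference against 3 higher, at a median of -0.76. With plain library totals 65 were lower, and without WT_MMS_1 112 were. RPL16B was at 1369.7, 1307 and 1078 CPM in WT_MMS and 349, 330.4 and 315 CPM in hel2_MMS, with a difference of -1.71 ± 0.15 (SE). RPL15B, which encodes the minor copy of this large-subunit protein, was the gene that rose in the deletion strain. Most of these genes have a near-identical copy, so values of single genes are uncertain. Of 39 translation factors 25 were lower at a median of -0.49, and 15 were lower with plain library totals. TEF4, a subunit of elongation factor 1B, changed by -1.82 in wild type and -3.50 in the deletion strain.

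Ribosome biogenesis leaned the same way less clearly, with 49 of 137 lower and 8 higher at a median of -0.25, and 26 lower with plain library totals or 67 without WT_MMS_1. Over all alternatives the higher members numbered 1 to 13. NOP1, the rRNA methyltransferase fibrillarin, changed by -1.80 in wild type and -3.52 in the deletion strain. RPA135 and RPA190, the largest subunits of RNA polymerase I, had differences of -1.37 ± 0.14 (SE) and -1.27 ± 0.11 (SE). Of 30 subunit genes of RNA polymerases I and III 8 were lower and 2 higher. The lower share of 26.7% stood beside 21.5% of all genes, and 13 were lower without WT_MMS_1 and 5 with plain library totals. Ribosome quality control and stress response to stalling made up a list of 41 genes, of which 6 were higher and 12 lower, or 6 lower with plain library totals. These shares, 14.6% and 29.3% with TMM scaling, stood beside 18.6% and 21.5% of all genes. RQT4, a subunit of the complex that splits ribosomes marked by Hel2, was at 3.23, 4.34 and 4.77 CPM in WT_MMS and 9.90, 11.4 and 10.8 CPM in hel2_MMS, with a difference of 1.39 ± 0.21 (SE). ASC1, the ribosomal protein at the collision interface, was lower, at -1.30 ± 0.22 (SE). DOM34, a ribosome rescue factor, was higher by 0.89 ± 0.24 (SE). HEL2 itself had 0.83 ± 0.27 (SE) from the few counts left in the deletion strain, and its call was lost in 6 of 19 alternatives.

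Nearly all general stress genes, targets of Msn2 and Msn4, rose in both strains. With MMS 57 of 60 rose in the wild type and 59 in the deletion strain, at medians of 3.12 and 3.55. The untreated deletion strain already had a median of 0.71 above the untreated wild type. In the difference 27 were higher and 11 lower, at a median of 0.28. HSP12, a membrane-protecting stress protein, was at 3.10, 4.62 and 3.52 CPM in untreated wild type and 283, 300.3 and 342 with MMS. Cells lacking HEL2 had it at 17.3, 14.0 and 13.6 CPM without and 3366, 2849 and 3234 with MMS, above the wild type in both states. DDR2 rose more in the wild type, by 8.12, than in the deletion strain, by 6.09. Its hel2_MMS libraries, at 2409, 1914 and 2141 CPM, nevertheless lay above the WT_MMS libraries, at 1425, 640.4 and 811 CPM, and its untreated level differed by 3.19.

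Chaperones under the heat shock factor Hsf1 were more often higher than lower in the difference, 16 against 5 of 31, at a median of 0.40. BTN2, which sorts misfolded proteins, changed by 1.07 in wild type and 2.41 in the deletion strain, and HSP42, a small heat shock protein, by 4.29 and 5.41. The 5 lower members were HSP60, SSC1, CPR1, HSP10 and HCH1, of which HSP60, HSP10 and SSC1 encode chaperones of the mitochondrial matrix. HSP60 had 0.28 in wild type, without a call, and changed by -0.76 in the deletion strain. Proteasome genes had 17 of 42 higher and 2 lower, POC4 and UMP1, at a median of 0.27. RPN8, a regulatory subunit, was at 65.1, 109 and 108 CPM in WT_MMS, with WT_MMS_1 at the untreated level, and 201, 205 and 214 CPM in hel2_MMS. Of 37 respiratory chain and ATP synthase genes 17 were higher and 1 lower, ATP18, at a median of 0.31. QCR7 of complex III fell by 1.01 in the wild type and had 0.22 in the deletion strain. Of 34 autophagy genes 11 were higher and 1 lower, and ATG39, a receptor for autophagy of the nucleus, changed by 2.78 in wild type and 4.32 in the deletion strain.

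Among other genes, TKL2, a transketolase gene, had a difference of 2.77 ± 0.39 (SE), and HBT1 one of 2.502 ± 0.31 (SE). PHO89, a phosphate transporter gene of the Pho4 regulon, had -0.35 in wild type, without a call, and changed by 2.00 in the deletion strain, and that regulon of 28 genes had 10 higher and 4 lower. CLD1, a cardiolipin deacylase gene, had a difference of 3.45 ± 0.94 (SE), which was 2.26 without WT replicate 3. ARO5 had a difference of 3.86 ± 1.08 (SE), with an adjusted p of 0.0502 without hel2 replicate 2 and 0.0511 without hel2 replicate 3. INA1 was lower, at -2.96 ± 0.23 (SE). Mitochondrial ribosomal proteins had 5 higher and 12 lower of 67, targets of the oxidative stress factor Yap1 11 and 9 of 39, and the iron regulon 5 and 10 of 32. Nitrogen catabolite repression targets had 4 higher and 5 lower of 28, cytosolic tRNA synthetases 1 and 6 of 19, the citrate cycle 4 and 4 of 20, and histones 4 and 3 of 10. Over all genes 18.6% were higher and 21.5% lower. Several of the counts of these lists moved by more than 1.5-fold with the setting. With plain library totals mitochondrial ribosomal proteins had 3 lower, tRNA synthetases 6 higher and 2 lower, nitrogen targets 9 higher and the phosphate regulon 1 lower. Without WT_MMS_1 the citrate cycle had 7 higher and the iron regulon 8.

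Opposite changes were small and few. There were 67 genes (1.04%) that fell in the wild type and rose in the deletion strain, and 99 (1.53%) that rose in the wild type and fell in the deletion strain, each at an adjusted p under 0.05 in both strains. The MMS contrasts of the strains share no library, but the genes were chosen by these contrasts, so that their difference is a description without a test. The median changes were -0.41 and 0.46 for the genes up in the deletion strain, and 0.41 and -0.49 for those down. A change of at least 1.5-fold in both strains was seen for 5 and 10 of them. At least 2-fold in both was reached by 1 gene, tT(AGU)B, a transfer RNA gene near the lower limit of counts that was named after its values were seen. Just inside the threshold were PRO2, at -0.16 and 0.18, and GIC2, at 0.19 and -1.11. Just outside were SPT20, at -0.38 and 0.50, and WBP1, at 0.20 and -0.46.

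Between the untreated strains 3 of the 67 and 8 of the 99 genes were called, beside 8.57% of all genes, and all 8 of the latter were higher in the deletion strain. The median untreated difference was -0.01 in both classes and 0.01 over all genes. Of the genes down in the deletion strain 87 were at 4 or more in mean log2 CPM, and of those up 42. Membership depended on scaling, since a shift of all genes moves small changes across 0. With plain library totals 47 and 70 genes had opposite calls, of which 13 and 22 were among the 67 and 99. Without WT_MMS_1 the classes had 59 and 97 genes, of which 46 and 75 were among the 67 and 99. With all 3 scalings 11 and 20 genes were opposite.

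Among the genes up in the deletion strain, GRX4 had the largest changes in both strains of those with 4 or more in mean log2 CPM. GRX4 went from 46.3, 46.5 and 46.9 to 23.04, 26.0 and 24.7 CPM in wild type and from 42.7, 44.4 and 43.1 to 91.3, 93.0 and 98.5 CPM in the deletion strain. The order of the libraries was hel2_MMS above both untreated groups and WT_MMS below them. GRX4 encodes a glutaredoxin of iron regulation, and its changes were -0.92 in wild type and 1.12 in the deletion strain. TMT1, its neighbour, rose in both strains and had a difference of 1.86, and without a stated strand reads of the pair cannot be told apart. MDH2 went from 172, 152 and 155 to 120.0, 92.6 and 99.6 CPM in wild type and from 101, 142 and 117 to 181, 163 and 176 CPM in the deletion strain. MDH2, the cytosolic malate dehydrogenase, was opposite at -0.62 and 0.53. Genes of synthesis pathways in this class included ARG8, the acetylornithine aminotransferase of arginine synthesis, at -0.52 and 0.79. ADE2, a purine synthesis gene, stood at -0.51 and 0.82, and HIS1, the first step of histidine synthesis, at -0.40 and 0.57.

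RTF1, a subunit of the Paf1 transcription elongation complex, was at -0.52 and 0.82. RTF1 went from 20.3, 22.2 and 25.4 to 9.61, 19.2 and 18.3 CPM in wild type and from 27.3, 23.3 and 20.9 to 40.5, 42.5 and 43.0 CPM in the deletion strain, and the groups with MMS lay on either side of the untreated libraries. IMH1, a golgin, was at -0.43 and 1.09, CAJ1, a DnaJ family cochaperone, at -0.64 and 0.52, and BIR1, a subunit of the chromosomal passenger complex, at -0.37 and 0.65. RPL15B was at -0.83 and 0.52, the single ribosomal protein gene with opposite calls of this kind. TEA1, which encodes an activator of Ty1 transposon genes, was at -0.41 and 0.40, and STB6 at -0.37 and 0.47. Words of transcription or RNA polymerase II occurred in the gene descriptions deposited with the counts for 19 of the 67 genes (28.4%). The share was 11.4% of all genes and 2.02% of the genes down in the deletion strain. These words were chosen after the values were seen. Under plain library totals RTF1, IMH1, CAJ1, BIR1, TEA1, STB6 and HIS1 had no call in the wild type, at -0.30 to -0.03, and so were not opposite.

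**Figure D5:**
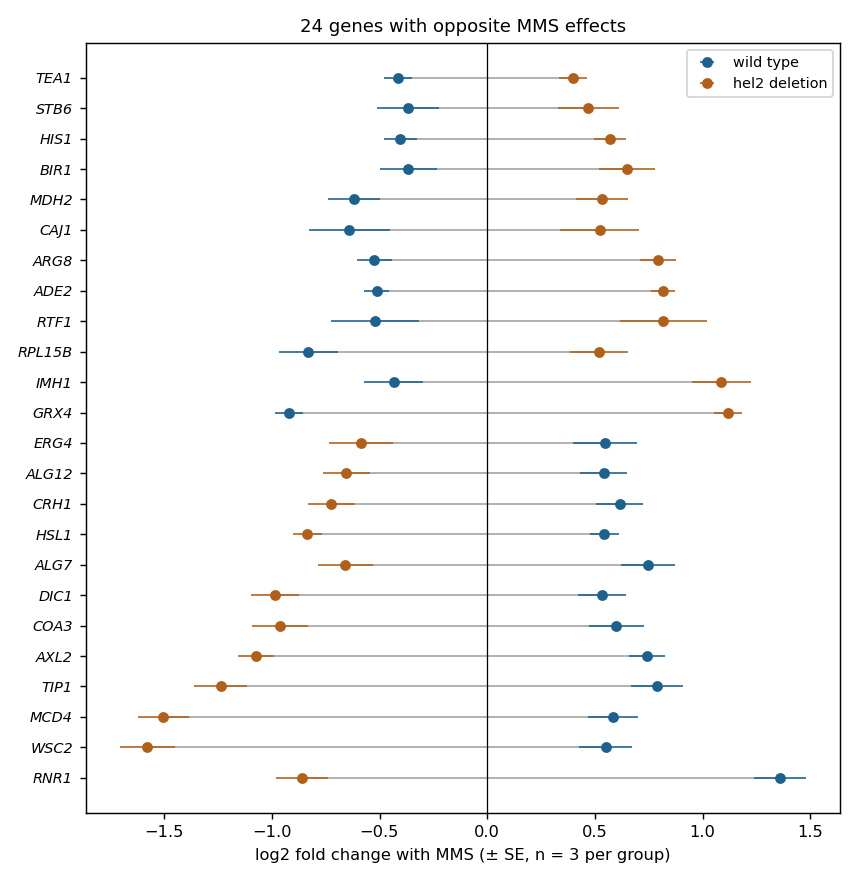
Log2 fold change with MMS, with its SE, in wild type and in the hel2 deletion strain for the 12 genes of each opposite class with the largest smaller change of the strains, by the rule for named genes. The upper genes fell in the wild type and rose in the deletion strain, the lower genes the reverse, and the strains lie farthest apart for GRX4 in the first group and RNR1 in the second.

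Among the genes down in the deletion strain, RNR1 belonged both to the DNA damage and to the G1/S list. RNR1 went from 591, 532 and 531 to 1585, 1427 and 1230.0 CPM in wild type and from 481, 535 and 625 to 318, 319.8 and 267 CPM in the deletion strain. It thus rose above the untreated level in every WT_MMS library and fell below it in every hel2_MMS library. RNR1 encodes the main large subunit of ribonucleotide reductase, and its changes were 1.36 in wild type and -0.86 in the deletion strain, a difference of -2.22. AXL2, a membrane protein of bud site selection, was at 0.74 and -1.07. HSL1, a kinase of the septin checkpoint, was at 0.54 and -0.83.

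Several of the others serve the cell wall, the membrane or the secretory pathway. WSC2 went from 221, 180.3 and 187 to 356, 248 and 257 CPM in wild type and from 190.0, 206 and 187 to 66.2, 67.9 and 61.4 CPM in the deletion strain. WSC2, a sensor of the cell wall integrity pathway, was at 0.55 and -1.58. The wall mannoprotein gene TIP1 was at 0.79 and -1.24, and CRH1, which crosslinks chitin to glucan, at 0.62 and -0.72. MCD4 went from 134, 107 and 126 to 219, 167 and 164 CPM in wild type and from 109, 124 and 125 to 43.7, 43.1 and 39.4 CPM in the deletion strain. MCD4, an enzyme of GPI anchor synthesis, was at 0.58 and -1.50, and its strains overlapped without MMS and stood apart with it. ALG7 and ALG12 of N-glycosylation were at 0.75 and -0.66, and at 0.54 and -0.65. ERG4, the last step of ergosterol synthesis, was at 0.55 and -0.59. Scaled by plain library totals, ALG7, ALG12 and ERG4 had no call in the deletion strain, at -0.10, -0.09 and -0.03. Words of the endoplasmic reticulum, Golgi, GPI anchors or glycosylation occurred in the descriptions of 30 of the 99 genes (30.3%), against 10.1% of all genes and 7.46% of the genes up in the deletion strain. Cell wall words occurred for 8.08%, against 2.35% of all genes. These words too were chosen after the values were seen. The class also had a higher median level than all genes, at 6.37 against 5.02 in mean log2 CPM, so all genes are not a like background. Of the unfolded protein response list 6 of 30 genes were in this class, CNE1, EUG1, FPR2, PMT1, SEC61 and SEC62. Under plain library totals PMT1 and SEC61 kept opposite calls, EUG1 and FPR2 had no call in the deletion strain, and CNE1 and SEC62 rose there by 0.28 and 0.39.

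A pair of mitochondrial genes shared this direction. DIC1, the dicarboxylate carrier of the inner membrane, was at 0.53 and -0.99. COA3, an assembly factor of cytochrome oxidase, was at 0.60 and -0.96. It lies beside LAS21, a GPI anchor synthesis gene, which changed by 0.46 and -0.56, and reads of the pair cannot be told apart. Mitochondrial words occurred in 13.1% of the descriptions of this class and 12.9% of those of all genes.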

How the data were processed

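Whole-number counts per gene were deposited by the authors for all 12 libraries. Per the submitters' processing notes, STAR 2.5.1a and featureCounts 1.4.6-p5 were among the tools. Which build and annotation were used, whether counting was stranded and how multimapping reads were handled is not stated there. The table had 7230 lines for 7109 identifiers, and 97 identifiers on several lines had equal counts and were used once. Symbols came from a RefSeq table of assembly R64 for 6042 identifiers.

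Depth was 36472686 to 53638964 counts per library, and levels were computed as CPM of TMM-scaled libraries. Genes were kept with edgeR's filterByExpr, and one quasi-likelihood model (edgeR 4.0.16, robust, in R 4.3.3) was fitted to the 4 groups. The contrasts were MMS in each strain, the difference of these, and the strains without MMS. P-values were adjusted by Benjamini-Hochberg over all 6463 genes, at a threshold of 0.05. The SE is the ratio of the log2 change to √F of its test. The libraries are labelled biological replicates, and p-values measure the spread between them. The scripts were tested on simulated data.

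Genes were named by rule: a fixed set of regulators and reporters, the 12 largest differences in each direction among genes at 4 or more in mean log2 CPM, 12 genes of each opposite class, and up to 3 called members of each list. A further 16 genes, and members named to account for a small count, were named after their values were seen. The 45 lists held 1370 identifiers, and 4 entries were not matched (EDF1, AAD16, FEN1 and YLP1). Members and lists were chosen with earlier results of these data known.

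Alternatives were other scalings (RLE, plain library totals), other filters, DESeq2 1.42.0, limma-voom (limma 3.58.1), the replicate number as a block, each library left out in turn and, for opposite genes, stricter thresholds. Comparisons of sequence were not made.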

Additional observations from a re-analysis of the deposited data

Results flagged for a closer look

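The MMS effect differed between the strains by the test of the difference itself for 2587 genes, and it had opposite calls for 67 genes up and 99 genes down in the deletion strain. With TMM scaling, each gene below stood above the untreated libraries of the same strain in every treated library of one strain. In every treated library of the other strain it stood below that strain's own untreated libraries. All of these genes were chosen by the contrasts that make up the difference. The differences of those up in the deletion strain were 2.04 for GRX4, 1.15 for MDH2, 1.32 for ARG8, 1.16 for CAJ1, 1.34 for RTF1, 1.35 for RPL15B, 1.33 for ADE2, 1.52 for IMH1 and 1.01 for BIR1. Those of the genes down in the deletion strain were -2.22 for RNR1, -2.02 for TIP1, -1.81 for AXL2, -1.41 for ALG7, -1.34 for CRH1 and -1.56 for COA3. The others were -2.09 for MCD4, -2.13 for WSC2, -1.13 for ERG4, -1.38 for HSL1, -1.20 for ALG12 and -1.52 for DIC1. With plain library totals 7 of these genes lost an opposite call. BIR1, RTF1, IMH1 and CAJ1 had no call in wild type, at -0.03, -0.17, -0.10 and -0.30, and ERG4, ALG7 and ALG12 none in the deletion strain, at -0.03, -0.10 and -0.09. Single libraries were not tested for standing apart, as each group has 3.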

How the results depend on the processing

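The direction of every named gene's called difference held under each of the 19 alternatives that tested the gene. With plain library totals the count of lower genes was 748 in place of 1387. Among genes at 4 or more in mean log2 CPM, 421 genes in place of 634 were called at 2-fold or more. Opposite genes up in the deletion strain numbered 17 at an adjusted p under 0.01 in both strains and 5 at a change of at least 1.5-fold in both, and those down numbered 50 and 10. With each library left out in turn, the difference was called for 2193 to 2828 genes, 970 to 1315 higher and 1223 to 1513 lower, and for 553 to 735 at 2-fold or more. MMS was then called for 4219 to 4514 genes in wild type and 4614 to 5105 in the deletion strain. Opposite genes then numbered 46 to 89 up and 73 to 111 down. Across the 18 fits other than the one limited to higher levels, 8 of the 67 and 13 of the 99 genes kept their opposite calls, and 28 and 52 did when plain library totals were also set aside.

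Pairing by replicate number was not seen, but deviations from means of 3 libraries cannot exclude it. The 18 same-numbered pairs correlated at -0.38 to 0.24, 1 of them over 0.1, and 3 libraries were most like their own number. With the replicate block 2378 genes were called in the difference, and 61 and 94 had opposite calls. Of the named genes, LEU2, LEU4, MRPL51, ERG29, REC8, HEL2, GCN2, MET17, ARO5 and GDH1 changed their call under 1 or more alternatives. Depth limits the genes with few counts, such as HEL2 and LEU2 in the strain that lacks them.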

Other observations

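Neighbouring genes moved together in several places, and without a stated strand setting reads of such pairs cannot be told apart. BSC5 had a difference of 2.17 and its neighbour YNR068C one of 2.40, with changes in YNR068C of 1.84 in wild type and 4.23 in the deletion strain. ARO5, at 3.86, lies beside CDC20, an activator of the anaphase-promoting complex, at 1.42, while SNF4 on the other side of CDC20 had 0.04 without a call. GRX4, at 2.04, lies beside TMT1, at 1.86, and RAD24 on its other side had 0.27 without a call.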
